A study of Rattus norvegicus with 18 samples.

Results

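The mitochondrial ribosomal protein genes were taken as every gene whose symbol begins with Mrpl or Mrps followed by digits, and 75 of the 33898 genes in the count table met this rule. One symbol occurred in 2 rows, and the row with more counts was kept, so that 76 rows gave 75 genes. Of these, 74 had enough reads to be tested, among 14184 tested genes in all. The exception was Mrps21l, which had 36 counts over all 18 libraries. Among the tested genes, 73 encode proteins of the ribosome, 47 in the large subunit and 26 in the small subunit. The remaining one, Mrps36, is now known as Kgd4, a subunit of the 2-oxoglutarate dehydrogenase complex, and is kept here because its symbol fits the rule.

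The mitochondrial ribosome, or mitoribosome, translates the few messenger RNAs made from mitochondrial DNA, all of which encode subunits of the respiratory chain and of ATP synthase. Its ribosomal RNAs are made inside the organelle, whereas all of its proteins are encoded in the nucleus, made in the cytosol and imported. Many of these proteins descend from bacterial ribosomal proteins, and the others were added to the ribosome in the course of eukaryotic evolution. By the unified names of ribosomal proteins, 26 large subunit and 16 small subunit proteins of this set are classed with a bacterial counterpart, and 21 and 10 as specific to mitochondria. Mrps18a and Mrps18b are in the second class by name, although their sequences are related to the bacterial protein whose counterpart is Mrps18c. Cells of the nucleus pulposus, the gelatinous core of the intervertebral disc, live with little oxygen and are known to rely largely on glycolysis.

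The study asked how gene expression in rat nucleus pulposus cells changes when G-quadruplexes, 4-stranded structures formed by guanine-rich DNA or RNA, are stabilised. Cells from Sprague Dawley rats aged 8 weeks were grown in medium with serum and exposed for 24 hours to one of the G-quadruplex ligands PDS (pyridostatin), Phen-DC3 and Braco-19. PDS and Phen-DC3 are both dicarboxamides that carry quinoline-type arms, on a pyridine and on a phenanthroline core, whereas Braco-19 is a substituted acridine. RNA was sequenced in 18 libraries, 3 in each of 6 groups: PDS, Phen-DC3, Braco-19, controls named for PDS, controls named for Phen-DC3 (written "Phen" in the titles), and controls that name no compound. These last controls were set against Braco-19 by elimination. The doses and what the control cells received are not in the labels, and the compounds are therefore not compared at known matched doses. The libraries of a group are called biological repeats, but no label ties them to different cultures or rats, so the p-values measure the spread between these libraries, which may be technical.

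The libraries held 15715121 to 18369443 counts each. The defining notochordal markers Tbxt, Noto, Shh and Krt19 were at 0 in all 18 libraries and Acan, the main disc proteoglycan, reached at most 3.44 CPM, counts per 1000000 counts of the library after scaling, while Pax1, Foxf1 and Cd24 were detected in all 6 groups. Of 15 nucleus pulposus markers found in the table, 8 exceeded 1 CPM in every group, and endothelial markers summed to at most 1.19 CPM. Of 3 fibroblast markers, Col1a1 averaged 5280 CPM with Braco-19 and 4850 CPM in its controls, against 1110 to 1410 CPM in the other 4 groups, and set the sum of the 3, which was 5190 to 6310 and 4700 to 5780 CPM, against 1490 to 2060 CPM. Dcn, at 205 and 229 CPM against 237 to 326 CPM, and Lum, at 155 and 186 CPM against 173 to 281 CPM, were not raised with it. The spread between replicate libraries was uneven: squared differences relative to counting error were 6.48 to 16 per gene with Phen-DC3 and 12.8 to 34 in its controls, the widest, and 4.12 to 12.6 in the other groups.

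The gene models of the mitoribosomal proteins were short, with a median length of 1083.5 bases against 2248 bases for all tested genes, and 68 of the 74 lay below that median. The shortest were Mrpl33 with 236 bases, Mrpl36 with 294 bases and Mrpl53 with 360 bases. The longest were Mrps2 with 4125 bases, Mrps36 with 2690 bases and Mrpl40 with 2401 bases. Length moved with the differences between several groups over all genes. Each difference is therefore given as counted and after a correction that subtracts, in each library, the smooth trend of all tested genes with length.

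Per kilobase of gene model, the highest mean level over the 18 libraries was that of Mrpl33, a protein of the large subunit, at 394.5 CPM per kilobase. It was followed by Mrpl17 at 227.9, Mrpl54 at 107.5 and Mrpl23, a protein at the exit of the peptide tunnel, at 99.35 CPM per kilobase. Among the tested genes the lowest levels per kilobase were 2.693 CPM for Mrpl1, a protein of the mobile L1 stalk, 3.315 CPM for Mrpl36, 3.856 CPM for Mrpl47 and 6.057 CPM for Mrpl53. The means of Mrpl36 and Mrpl53 each rest on a single high library, described further on, without which they were 1.192 and 1.729 CPM per kilobase, below Mrpl1. Mrps21l, not tested, was at 0.4479 CPM per kilobase. Mrpl12 and Mrps12, which form part of the factor-binding stalk and of the decoding site, lay in between at 54.18 and 84.95 CPM per kilobase. Genes with near-identical copies elsewhere in the genome can lose or gain reads: 23 of the 74 have at least 1 further RefSeq gene of the same name stem, among them Mrpl42, Mrpl17, Mrps16 and Mrpl1. A further limit is that 11 of the 74 overlap a gene on the opposite strand, and whether reads were counted by strand was not found in the sources used here.

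Promoter sequences from RefSeq (build GRCr8, 250 bases before to 50 bases after the start of each gene) were found for 59 of the 74 genes, and these are shown because the compounds bind G-quadruplexes. A quadruplex pattern was defined as 4 runs of at least 3 G separated by 1 to 7 bases, on either strand. It occurred in 10 of the 59 promoters (16.9%), against 16.6% of 33469 promoters in the table and 18.4% of the 21851 promoters of protein-coding genes. The 10 genes were Mrpl14, Mrpl23, Mrpl37, Mrpl47, Mrpl55, Mrps5, Mrps6, Mrps7, Mrps17 and Mrps26. Mrpl14 encodes a protein at the interface of the subunits and had the promoter richest in G and C, at 76.7%, against a median of 56.0% over the 59. Its minus-strand promoter at chr9:22811184-22811483 held the pattern in 2 stretches, and the plus-strand promoter of Mrps26 at chr3:138222074-138222373 held it on the opposite strand, where it reads as runs of C. The pattern is in capitals.
Mrpl14: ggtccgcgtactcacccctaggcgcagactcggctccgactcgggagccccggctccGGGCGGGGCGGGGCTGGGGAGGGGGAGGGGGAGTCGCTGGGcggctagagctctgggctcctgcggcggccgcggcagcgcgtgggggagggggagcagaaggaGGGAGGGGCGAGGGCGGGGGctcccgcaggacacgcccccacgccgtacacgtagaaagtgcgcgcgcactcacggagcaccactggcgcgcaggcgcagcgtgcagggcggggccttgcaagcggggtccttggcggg
Mrps26: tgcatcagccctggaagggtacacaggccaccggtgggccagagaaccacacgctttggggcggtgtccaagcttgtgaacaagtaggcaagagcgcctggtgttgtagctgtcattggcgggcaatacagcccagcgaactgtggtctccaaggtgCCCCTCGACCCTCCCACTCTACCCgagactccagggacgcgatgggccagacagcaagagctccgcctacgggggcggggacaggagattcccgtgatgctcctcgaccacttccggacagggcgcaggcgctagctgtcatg

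Motifs of factors known to act on nuclear genes for mitochondrial proteins were searched in the same windows on both strands. The palindromic motif of NRF1 (nuclear respiratory factor 1), in capitals in the sequences at the end of the paragraph, was present in 4 of the 59 promoters (6.8%), those of Mrpl17, Mrpl32, Mrpl44 and Mrps18b, against 0.9% of all promoters and 1.1% of coding ones. The ETS-type motif CCGGAAG, which GABP (NRF2) recognises, was present in 20 of the 59 (33.9%), against 8.7% and 10.7%. Both quadruplex pattern and ETS motif occurred in 2 promoters, both NRF1 and ETS motifs in 1, and no matches of different motifs overlapped. The 2 promoters below lie at chr1:169575650-169575949 on the minus strand for Mrpl17 and at chr20:2842756-2843055 on the plus strand for Mrps18b, with the motif as searched in capitals. Both genes were called lower in the controls of Phen-DC3 than in those of PDS, as described further on. Mrpl32 and Mrpl44, which have the same motif, were not called there. The median of all 74 genes was -0.19 on the log2 scale in that comparison, and a link to the motif was not tested. A match describes the letters in the window and not binding of a factor.
Mrpl17: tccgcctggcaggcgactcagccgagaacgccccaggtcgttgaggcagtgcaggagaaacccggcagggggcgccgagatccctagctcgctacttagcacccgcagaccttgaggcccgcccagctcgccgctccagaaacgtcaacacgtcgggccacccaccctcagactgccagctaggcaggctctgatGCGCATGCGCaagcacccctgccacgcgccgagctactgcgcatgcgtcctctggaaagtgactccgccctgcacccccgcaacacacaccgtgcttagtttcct
Mrps18b: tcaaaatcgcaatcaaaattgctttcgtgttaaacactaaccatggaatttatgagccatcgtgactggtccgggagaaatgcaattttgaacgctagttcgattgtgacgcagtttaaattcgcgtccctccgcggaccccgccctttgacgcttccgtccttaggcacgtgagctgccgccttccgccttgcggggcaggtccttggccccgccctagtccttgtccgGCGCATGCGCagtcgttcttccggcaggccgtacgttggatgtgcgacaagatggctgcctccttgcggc

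The summed share of all counts that fell in the 75 genes gives the level of the whole set. It was 0.3485, 0.3374 and 0.3318% with PDS, against 0.3522, 0.36 and 0.3838% in PDS controls, and 0.3876, 0.3752 and 0.3509% with Phen-DC3, against 0.2988, 0.3158 and 0.3505% in Phen-DC3 controls. With Braco-19 it was 0.1921, 0.2149 and 0.2065%, against 0.1815, 0.174 and 0.1789% in the controls of Braco-19. In each pair the groups did not overlap: the share was lower with PDS and higher with Phen-DC3 and Braco-19 than in the matching controls. The margin was narrowest between the lowest Phen-DC3 library and the highest of its controls. Their counting intervals (exact binomial) were 0.3481 to 0.3537% and 0.3477 to 0.3534%, so that this separation lies within counting error. The intervals of the nearest libraries also overlapped with PDS, at 0.3457 to 0.3513% against 0.3494 to 0.3551% in its controls. With Braco-19 they did not, at 0.1901 to 0.1942% against 0.1794 to 0.1836% in its controls. With 3 libraries against 3, an exact two-sided permutation test of one value cannot go below p = 0.1, and the shares are given as a description. The share averaged 0.365% ± 0.016 in PDS controls and 0.322% ± 0.026 in Phen-DC3 controls, against 0.178% ± 0.0038 in the controls of Braco-19 (SD, n = 3 each), a larger distance to the controls of Braco-19 than any compound made to its own controls. The same libraries differed in gene length: genes over 5000 bases took 24.2% of counts with Braco-19 and 25.3% in its controls, against 7.99 to 9.98% in the other 4 groups. The gene Fn1 alone took 7.06% of counts with Braco-19 and 7.75% in its controls, against 0.723 to 1.12% in the other 4 groups. The part that long genes and Fn1 play in the share was not tested. In RNA from whole cultures, fewer cells of a kind and less RNA per cell cannot be told apart.

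**Figure D1:**
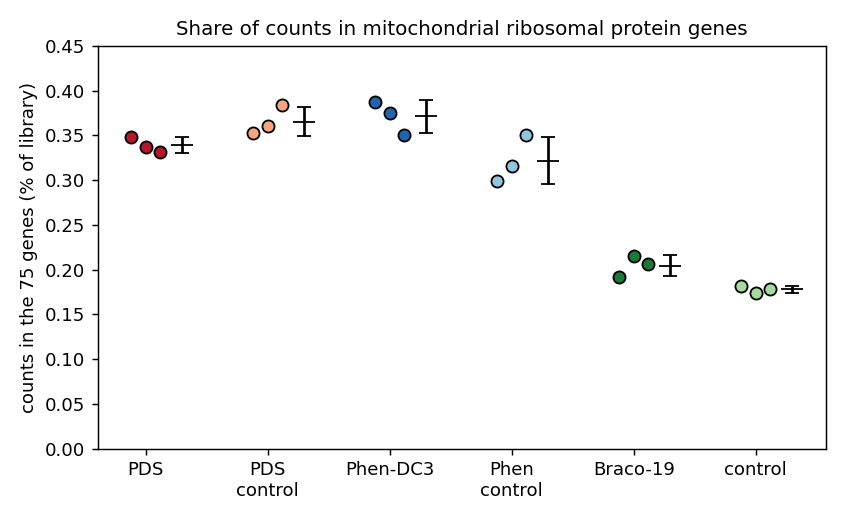
Share of all counts, in percent, that fell in the 75 mitoribosomal protein genes, for each of the 18 libraries (points) with the mean and SD of each group of 3. The Braco-19 libraries and the controls of Braco-19 lie between 0.174 and 0.2149%, and the other 12 libraries between 0.2988 and 0.3876%.

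With PDS, Mrpl42 was the one mitoribosomal protein gene called in the fit of all 18 libraries, and it rose, while most of the others had values below 0. At an adjusted p under 0.05 by edgeR's quasi-likelihood test with Benjamini-Hochberg adjustment over all tested genes, 1 of the 74 was called higher, where the background was 5.13% of all tested genes, and none was called lower, where the background was 2.96%. DESeq2 called 2 higher and 1 lower, and its share over all genes is not given here. The edgeR fit to the 6 PDS and PDS control libraries alone gave another picture: of 73 genes it tested, 12 were lower and 1, Mrps30, was higher, against 8.08% and 7.48% of all genes in that fit, and Mrpl42 was not called. At an unadjusted p under 0.05, the fit of all libraries gave 3 higher and 8 lower, against 13.3% and 9.58% of all tested genes, a share near the background on the lower side and below it on the higher side. Fold changes of the 74 genes, Mrpl42 included, leaned to lower values: 20 of 74 were above 0, and the median was -0.10 on the log2 scale against 0.02 for all tested genes. After length correction 24 of 74 were above 0, and the median was -0.068 against 0.005 for all tested genes. Fold change and gene length had a Spearman rho of 0.48 over the 74 genes and 0.17 over all tested genes. After the correction these were 0.27 and 0.008, across genes, which are not independent replicates. Libraries of the groups did not overlap for 5 genes that were higher and 20 that were lower with PDS, against 17.7% and 15.6% of all tested genes, so the share on the higher side is below the background and the share on the lower side above it.

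Mrpl42, a mitochondrion-specific protein of the large subunit (chromosome 7, 36573654 to 36597462, minus strand, in the build of the deposited table, which the sources used here do not name), had 34.1, 32 and 34.2 CPM with PDS, against 22.2, 19.4 and 31.3 CPM in PDS controls. All 3 PDS libraries lay above all 3 controls, and the third control lay closest. Its log2 fold change was 0.46 ± 0.14 (SE, n = 3 each; 1.38-fold, edgeR adjusted p = 0.038). The call depended on which libraries were included. Leaving out each library in turn gave 0.324 to 0.687 on the log2 scale, with edgeR adjusted p from 0.00178 to 0.206. It was then called only without the third PDS control. An edgeR fit to the 6 PDS and PDS control libraries alone gave 0.45 with an adjusted p of 0.0565. Mrpl42 has 3 further named copies in RefSeq, between which reads may be split.

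Mrps30, first described as a pro-apoptotic protein and now placed in the large subunit, missed the threshold as counted and passed it after length correction. Its levels were 53.5, 54.6 and 59.7 CPM with PDS, against 41.9, 41.9 and 47.3 CPM in PDS controls, with no overlap. The log2 difference was 0.36 ± 0.11 (SE, n = 3 each; edgeR adjusted p = 0.0501), and 0.38 after length correction (adjusted p = 0.045), by which 2 of the 74 genes were called higher and none lower, against 4.81% and 3.81% of all tested genes. Mrpl42 was the other, with 0.55 and an adjusted p of 0.00704. The remaining genes with the largest positive values were Mrpl1 at 0.78 (adjusted p = 0.157) and Mrps10 at 0.31 (adjusted p = 0.235) on the log2 scale, both without a call.

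On the lower side no gene passed in the fit of all 18 libraries. In the fit to the compared libraries alone the 12 lower genes were Mrpl20, Mrps12, Mrps7, Mrps16, Mrpl48, Mrpl2, Mrpl43, Mrpl27, Mrpl49, Mrpl14, Mrpl54 and Mrps26, with log2 values of -0.60 for Mrpl49 to -0.24 for Mrps26. Mrps16, a protein of the body of the small subunit, had 47.9, 41.5 and 33.5 CPM with PDS, against 55.7, 54.2 and 56.1 CPM in PDS controls, a log2 difference of -0.43 with an edgeR adjusted p of 0.102. Mrpl2, which lies close to the peptidyl transferase centre, had 24.4, 23 and 22.3 CPM with PDS, against 26, 31.9 and 30.3 CPM in PDS controls (-0.34, adjusted p = 0.059). Mrpl48, a protein of the central protuberance, had 27.8, 29 and 27.4 CPM with PDS, against 33.8, 33.6 and 37.8 CPM in PDS controls (-0.32, adjusted p = 0.0804). The groups did not overlap for these 3 genes, of which Mrpl2 and Mrpl48 were picked after their values were seen. The largest negative values were those of Mrpl36 at -0.99 ± 1.3 (SE), with levels near 0, of Mrpl49 at -0.59 (adjusted p = 0.153) and of Mrpl20 at -0.42 (adjusted p = 0.217), the last 2 called in the fit to the compared libraries alone.

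Both subunits leaned the same way with PDS. As counted, the median was -0.09 for the 47 large subunit genes, 12 of them above 0. It was -0.11 for the 26 small subunit genes, 8 of them above 0. After length correction the medians were -0.067 and -0.072, with 16 and 8 genes above 0. Among genes known for a defined function, Mrpl12 of the factor-binding stalk averaged 95.4 ± 5.58 CPM with PDS and 101.0 ± 4.44 CPM in PDS controls (SD, n = 3 each). Mrps12 at the decoding site averaged 69.8 ± 3.9 CPM with PDS and 84.6 ± 3.05 CPM in PDS controls, without a call in the fit of all libraries (edgeR adjusted p = 0.258) and with one in the fit to the compared libraries alone (adjusted p = 0.00958). Mrpl58, a peptidyl-tRNA hydrolase that became part of the ribosome, averaged 36.5 ± 0.541 CPM with PDS and 38.3 ± 4.88 CPM in PDS controls. Mrpl3, Mrpl44 (a protein with an RNase III-like fold) and Mrps2 differed by at most 0.072 on the log2 scale in either direction.

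**Figure D2:**
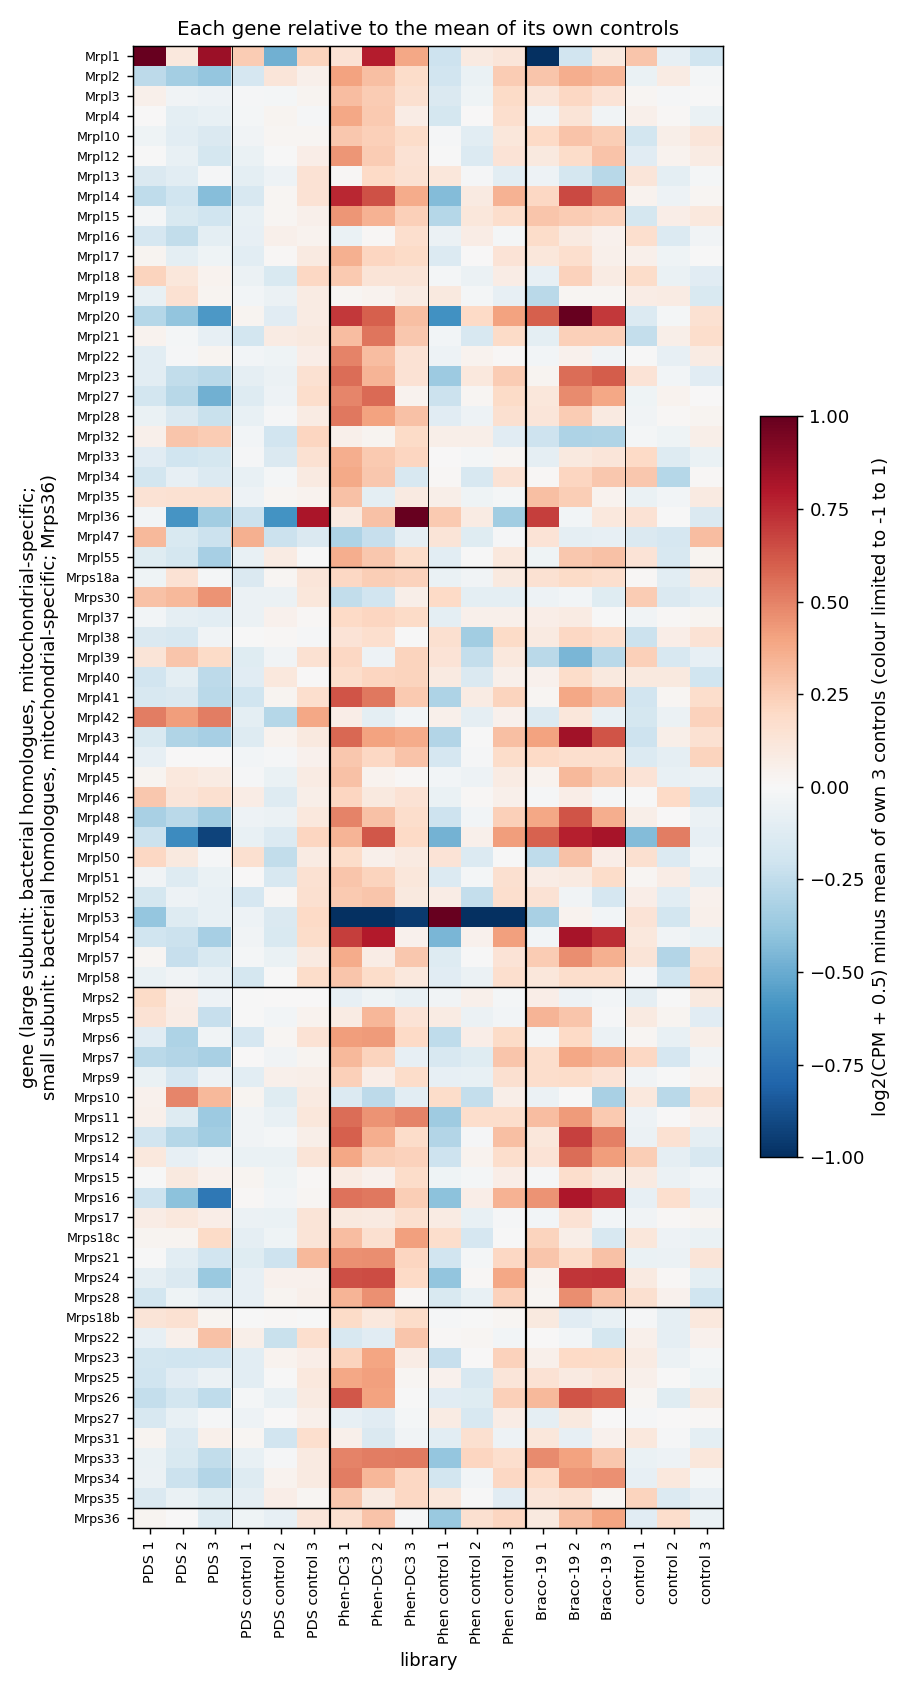
Difference in log2(CPM + 0.5) of each of the 74 tested genes in each of the 18 libraries from the mean of the controls of the same compound, with colours limited to -1 and 1. The 74 genes lean to higher values with Phen-DC3 and Braco-19 and to lower values with PDS, and the Phen-DC3 controls differ most among themselves.

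As counted in the fit of all 18 libraries, Phen-DC3 against its controls gave the largest number of calls among the compounds: 9 of the 74 genes rose, 6 of the large and 3 of the small subunit, and none fell. The background was 2.19% of all tested genes called higher and 5.82% called lower. The order of the compounds turned in other settings. After length correction 2 genes were called with PDS, 1 with Braco-19 and 0 with Phen-DC3. In the fits to the compared libraries alone, 1 was higher and 12 were lower with PDS, 8 were higher with Braco-19 and none was called with Phen-DC3. The shares of all genes in these settings are given with each compound. In the fit of all 18 libraries as counted, the values with Phen-DC3 were as follows. The median over the 74 genes was 0.23 on the log2 scale against -0.01 for all tested genes, and 66 of 74 values were above 0. Libraries did not overlap for 26 genes that were higher and 1 that was lower, against 10.1% and 11.9% of all tested genes. At an unadjusted p under 0.05 there were 38 higher and 1 lower, against 12.5% and 16.4% of all tested genes. DESeq2 called 22 of the 74 genes, the 9 above among them. The share of all genes that DESeq2 called is not given here, so this count has no background beside it.

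None of these calls held after the length correction, by which 0 of the 74 genes were called in either direction by edgeR, against 0.155% and 0.176% of all tested genes. At an unadjusted p under 0.05 there were then 14 higher and 1 lower, against 10.1% and 9.66% of all tested genes. The corrected median was 0.14 and 58 of 74 values were above 0. A fit to the 6 libraries of this comparison alone, as counted, also called none of the 74, where it called 0.00755% of all genes it tested higher and 0% lower. Over the 74 genes, fold change and gene length had a Spearman rho of -0.50, and over all tested genes of -0.44; after the correction these were -0.09 and 0.01. Both are across genes, which are not independent replicates. Within bins of length the medians of the 74 genes were 0.37, 0.34, 0.12, 0.20 and 0.03 for genes up to 700, 1000, 1500 and 2500 bases and above, against 0.21, 0.21, 0.13, 0.06 and -0.14 for all tested genes of the same lengths. The medians of the 74 thus lay above those of other genes in 4 of the 5 bins, of which the last holds 2 of the 74.

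**Figure D3:**
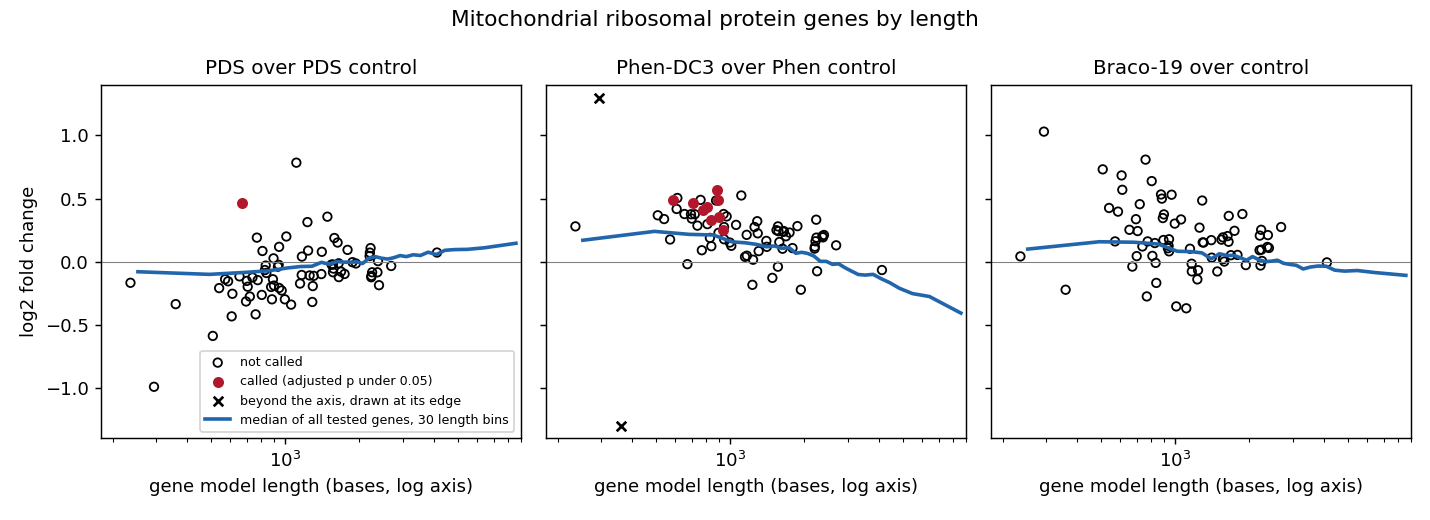
Log2 fold change against gene length in bases (log axis) for the 74 tested genes with PDS, Phen-DC3 and Braco-19, each against its own controls, with called genes in red and the median of all tested genes in bins of length as a blue line. Crosses at the edge mark Mrpl36 and Mrpl53 in the Phen-DC3 panel, whose values lie beyond the axis, and the 9 red points of that panel lie above the line.

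Mrpl28, a large subunit protein with a bacterial homologue (chromosome 10, 15495684 to 15498295, plus strand), had the smallest p. It had 98.7, 90.9 and 83.9 CPM with Phen-DC3, against 63.4, 66.2 and 76.5 CPM in Phen-DC3 controls. The groups did not overlap, and means were 91.2 ± 7.41 and 68.7 ± 6.88 CPM (SD, n = 3 each). The log2 fold change was 0.41 ± 0.082 (SE; 1.33-fold, edgeR adjusted p = 0.0116), and 0.21 after length correction (adjusted p = 0.102).

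Mrpl14, whose promoter is printed above, rose most among the called genes, by 0.56 ± 0.16 on the log2 scale (SE; 1.48-fold, edgeR adjusted p = 0.0364). Its levels were 58.1, 53.5 and 44.4 CPM with Phen-DC3, against 25.2, 36.5 and 43.6 CPM in Phen-DC3 controls, so that the highest control nearly reached the lowest treated library. After length correction it was 0.40 (adjusted p = 0.101). The other called large subunit genes with a bacterial homologue were Mrpl22, whose protein lines the peptide exit tunnel, and Mrpl17. Mrpl22 had 47.6, 41.7 and 37.2 CPM with Phen-DC3, against 32.4, 34.4 and 33.8 CPM in Phen-DC3 controls (0.33 ± 0.087, SE; adjusted p = 0.0294). Mrpl17 had 282, 256 and 252 CPM with Phen-DC3, against 200, 221 and 242 CPM in Phen-DC3 controls (0.25 ± 0.073, SE; adjusted p = 0.0429), and neither pair of groups overlapped.

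The mitochondrion-specific large subunit genes that rose with Phen-DC3 were Mrpl41, also studied as a protein with a role in growth control, and Mrpl43. Mrpl41 had 83.7, 78.1 and 65 CPM with Phen-DC3, against 43.6, 57.3 and 63.3 CPM in Phen-DC3 controls, a log2 fold change of 0.47 ± 0.14 (SE; edgeR adjusted p = 0.0422). Mrpl43 had 79.1, 70.2 and 68.5 CPM with Phen-DC3, against 43, 52.7 and 65.3 CPM in Phen-DC3 controls (0.43 ± 0.13, SE; adjusted p = 0.048). In both genes the first control was lowest and the third stood close to the lowest treated library. Mrpl43 overlaps Twnk, the gene of the mitochondrial DNA helicase, on the opposite strand. Mrpl43 was the last of the 9 by p and lies outside the naming rule, which stops at 8. Next to the threshold on the other side were Mrpl15 at 0.33 (adjusted p = 0.0506) and Mrpl33 at 0.28 (adjusted p = 0.052), which were picked after their values were seen.

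The 3 small subunit genes that rose with Phen-DC3 were Mrps33, Mrps11 and Mrps34. Mrps33, a mitochondrion-specific protein, had 40.9, 41.3 and 41.6 CPM with Phen-DC3, against 22, 33.6 and 32.6 CPM in Phen-DC3 controls (0.49 ± 0.12, SE; 1.4-fold, edgeR adjusted p = 0.0213). The treated libraries agreed closely and the first control was far below the others. Mrps11, homologous to a bacterial protein of the platform, had 38.3, 35.4 and 36.5 CPM with Phen-DC3, against 20.1, 29.2 and 29.2 CPM in Phen-DC3 controls (0.49 ± 0.12, SE; adjusted p = 0.0238). Mrps34 had 94.1, 82.9 and 75.8 CPM with Phen-DC3, against 57.9, 64.4 and 76 CPM in Phen-DC3 controls (0.35 ± 0.11, SE; adjusted p = 0.0466), and its groups overlapped. These calls also depended on which libraries were included, since leaving out each of the 6 in turn left between 0 and 38 called genes. The log2 values then ranged from 0.317 to 0.598 for Mrps33, 0.33 to 0.579 for Mrps11 and 0.263 to 0.462 for Mrps34.

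The remaining genes gave no call with Phen-DC3. Mrpl12 averaged 105.0 ± 10.9 CPM with Phen-DC3 and 86.6 ± 8.42 CPM in Phen-DC3 controls (SD, n = 3 each; edgeR adjusted p = 0.0529). Mrpl37 averaged 98.3 ± 0.649 CPM with Phen-DC3 and 85.5 ± 4.93 CPM in its controls (adjusted p = 0.0521). Mrps22, a mitochondrion-specific small subunit protein, averaged 19.8 ± 3.51 CPM with Phen-DC3 and 19.6 ± 0.319 CPM in its controls, a log2 difference of 0.01. Mrps27, a pentatricopeptide-repeat protein, was at -0.08, and Mrps2 at -0.07. Aside from Mrpl53, treated below, the most negative values were those of Mrpl47 at -0.22, Mrps10 at -0.18 and Mrps30 at -0.13.

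**Figure D4:**
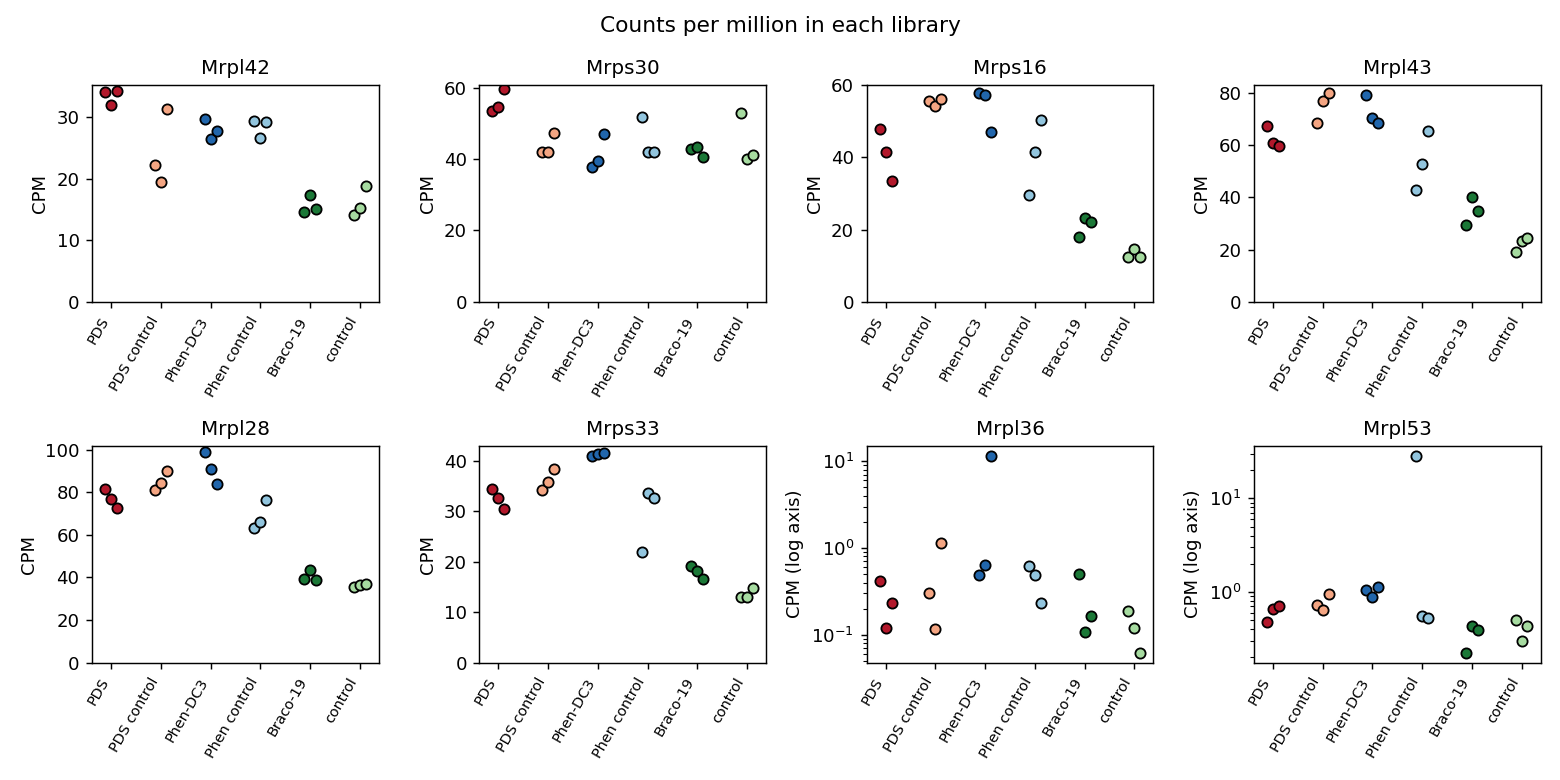
Level in CPM of 8 genes in each of the 18 libraries, grouped by compound and control, with linear axes for Mrpl42, Mrps30, Mrps16, Mrpl43, Mrpl28 and Mrps33 and log axes for Mrpl36 and Mrpl53. Mrpl28 and Mrps33 lie higher with Phen-DC3 than in its controls, Mrpl42 and Mrps30 higher with PDS than in its controls, and Mrpl53 and Mrpl36 each have 1 library far above the other 17.

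Braco-19 against its controls gave no call among the 74 genes as counted by edgeR's quasi-likelihood test in the fit of all 18 libraries, where 0.169% of all tested genes were called higher and 0.106% lower. DESeq2 called 5. In the edgeR fit to the 6 libraries of this comparison alone, 8 of 72 tested genes were higher and none was lower, against 3.21% and 2.58% of all genes in that fit. They were Mrpl20, Mrps16, Mrps26, Mrpl43, Mrpl48, Mrps34, Mrpl14 and Mrps33, at 0.38 to 0.81 on the log2 scale. At an unadjusted p under 0.05 the fit of all 18 libraries gave 24 higher and 2 lower, against 11.4% and 7.39% of all tested genes. Most values were above 0, 59 of 74, with a median of 0.15 on the log2 scale against 0.00 for all tested genes. Libraries did not overlap for 23 genes that were higher and 2 that were lower, against 13.7% and 14.4% of all tested genes. After length correction 1 of the 74 genes, Mrpl43, was called higher and none lower, against 0.183% and 0.134% of all tested genes, and the median was 0.08.

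Mrpl43 had 29.4, 40 and 34.6 CPM with Braco-19, against 19.1, 23.1 and 24.6 CPM in the controls of Braco-19, with no overlap. Its log2 difference was 0.64 ± 0.14 as counted (SE, n = 3 each; edgeR adjusted p = 0.0593) and 0.51 ± 0.11 after length correction (adjusted p = 0.037). Mrps16 had 18, 23.2 and 22.1 CPM with Braco-19, against 12.3, 14.7 and 12.3 CPM in the controls of Braco-19 (0.68, adjusted p = 0.102). Mrps26 had 28.6, 35.4 and 34.7 CPM with Braco-19, against 23.1, 20.9 and 24.3 CPM in its controls (0.53, adjusted p = 0.1). Both were without overlap and without a call in the fit of all libraries. Mrpl43 and Mrps26 were picked after their values were seen.

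Further large values with Braco-19 were those of Mrpl20, a large subunit protein with a bacterial homologue, at 0.81 (edgeR adjusted p = 0.113), of Mrpl49 at 0.73 and of Mrpl36 at 1.03, the last from levels near 0. On the lower side Mrpl32 had 20.2, 18.8 and 18.9 CPM with Braco-19, against 23.1, 22.7 and 24.4 CPM in the controls of Braco-19, a difference of -0.28 without a call. Mrpl1 was at -0.37 and Mrpl39 at -0.36. The medians of the 2 subunits were close, 0.15 for the large and 0.16 for the small. Mrps12 averaged 41.4 ± 8.14 CPM with Braco-19 and 30.2 ± 2.9 CPM in its controls (SD, n = 3 each; adjusted p = 0.154), and Mrpl12 averaged 64.0 ± 4.32 CPM with Braco-19 and 56.0 ± 3.96 CPM in its controls.

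Genes with and without the quadruplex pattern in their promoter were set side by side. For the 10 genes with the pattern and the 49 without, the median log2 fold change was -0.18 and -0.08 with PDS, 0.24 and 0.24 with Phen-DC3, and 0.19 and 0.15 with Braco-19. The gene models of the groups were of like length, with medians of 982.5 and 1057 bases. Of the 20 genes with the ETS motif none was called with Phen-DC3, and of the 39 without it 7 were, while their medians were 0.24 and 0.22 on the log2 scale. The background of calls was 2.19% of all tested genes. These are counts over the genes with a promoter in the table, and no test was made of them.

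The effects of the compounds were compared gene by gene by the difference of their log2 fold changes, for 3 pairs of compounds. The effects of Phen-DC3 and PDS differed in 25 of the 74 genes: the Phen-DC3 effect was higher in 24, where the background was 7.76% of all tested genes, and lower in 1, against 12.4%. After length correction the counts were 8 and 2, against 6.51% and 6.8%. The difference was 0.55 ± 0.12 for Mrpl28 (SE, edgeR adjusted p = 0.00433), 0.63 ± 0.15 for Mrpl2, 0.64 ± 0.16 for Mrpl48, 0.64 ± 0.17 for Mrps33 and 0.86 ± 0.22 for Mrpl14. Of these, Mrps33 was not called after length correction (adjusted p = 0.0907). The single gene with the lower Phen-DC3 effect was Mrps30, at -0.49 ± 0.16 (SE, adjusted p = 0.0342). With 1 library left out in turn, its call held in 5 of 12 fits (edgeR adjusted p up to 0.105). The calls of the genes named before it held in all 12. For Mrpl42 the difference was -0.48 (adjusted p = 0.0762), and -0.78 after length correction (adjusted p = 0.00855).

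The PDS and Braco-19 effects differed in 14 of the 74 genes, with the PDS effect higher in 1 and lower in 13, against 7.28% and 6.75% of all tested genes. After length correction these were 4 and 11, against 7.28% and 6.87%. The difference was -1.12 ± 0.23 for Mrps16, -0.90 ± 0.19 for Mrpl43, -0.80 ± 0.16 for Mrpl48 (SE, edgeR adjusted p = 0.00636, 0.00596 and 0.00404), -0.76 ± 0.19 for Mrps26 and -0.67 ± 0.16 for Mrpl2. Mrpl32, a large subunit protein whose maturation in yeast depends on a mitochondrial protease, was the one with the higher PDS effect, at 0.47 ± 0.14 (SE, adjusted p = 0.0367). With 1 library left out in turn, its call held in 3 of 12 fits (edgeR adjusted p up to 0.0966). The calls of the genes named before it held in all 12. In Mrps16 the sign of the difference came from both sides, since PDS libraries lay below their controls and Braco-19 libraries above theirs.

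The Phen-DC3 and Braco-19 effects differed in none of the 74 genes by edgeR's quasi-likelihood test, with 0.0141% of all tested genes called higher and 0.0353% lower. DESeq2 called none either, and at an unadjusted p under 0.05 there were 5 higher and 0 lower, against 3.31% and 6.16% of all tested genes. This does not show that the compounds act alike, because the intervals were wide. The difference was 0.25 for Mrpl28, with a 95% interval of -0.01 to 0.51, and 0.07 for Mrpl14, with an interval of -0.43 to 0.57. The intervals use the SE and the 12 residual degrees of freedom and are not those of the test. Mrpl28 is among the 5 higher genes, with an unadjusted p of 0.049 by edgeR, although its interval takes in 0. For Mrps16 it was -0.27, from -0.77 to 0.23, and for Mrpl43 -0.20, from -0.62 to 0.21.

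The PDS controls and the Phen-DC3 controls each differed from the controls of Braco-19 in more of these genes, and by larger medians, than any compound did from its controls. In PDS controls against the controls of Braco-19, 63 of the 74 genes were higher and 1 was lower by edgeR, against 35.6% and 37.7% of all tested genes. The median was 1.03 on the log2 scale against -0.02 for all tested genes, and libraries did not overlap for 65 genes that were higher and 1 that was lower, against 37.4% and 39.6%. After length correction 54 were higher and 8 lower, against 35.2% and 31.9%, with a median of 0.48. The labels give no culture date or batch, so batch and group cannot be told apart here. Between the same groups the fibroblast marker Col1a1 was at 1360 CPM in PDS controls and 4850 CPM in the controls of Braco-19, while Dcn (237 and 229 CPM) and Lum (173 and 186 CPM) lay close. The smooth muscle markers summed to 318 to 354 CPM in PDS controls and 106 to 157 CPM in the controls of Braco-19. Acta2 (283 and 115 CPM) and Cnn1 (43.7 and 13.2 CPM) made up that difference, Myh11 went the other way (6.38 and 9.07 CPM) and Rgs5 was at 0 in both. The part of these markers in the results was not tested.

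Mrpl17 was at 251, 272 and 288 CPM in PDS controls, against 130, 122 and 125 CPM in the controls of Braco-19, 1.10 ± 0.075 higher (SE, log2; 2.15-fold, edgeR adjusted p = 3.77e-11). Mrpl57, a short mitochondrion-specific protein, was at 42.1, 40.8 and 45.6 CPM in PDS controls, against 14, 10.3 and 14.3 CPM in the controls of Braco-19 (3.34-fold). Mrps16 had the largest ratio of the genes named, with 55.7, 54.2 and 56.1 CPM in PDS controls, against 12.3, 14.7 and 12.3 CPM in the controls of Braco-19 (4.21-fold). For these genes every PDS control library lay above every control library of Braco-19. Mrpl28, Mrps17, Mrpl48, Mrpl10, Mrps23 and Mrps34 also rose, by 1.04 to 1.54 on the log2 scale.

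Some genes lay apart from the rest. Mrps22 had 19.5, 16 and 21.1 CPM in PDS controls, against 20, 18.1 and 19.9 CPM in the controls of Braco-19, with overlap, and was called lower, at -0.61, after length correction. The other genes called lower in PDS controls after the correction were Mrpl1 at -0.89, Mrps31 at -0.54, Mrpl39 at -0.52, Mrps30 at -0.50, Mrps10 at -0.49, Mrpl32 at -0.46 and Mrpl18 at -0.24. Mrpl18 and Mrpl32 were called higher as counted, at 0.48 and 0.32, so that their direction depends on the correction. Mrps2, the longest of the set, turned the other way: it was at 32.1, 32.3 and 32.2 CPM in PDS controls, against 38, 40.3 and 43.2 CPM in the controls of Braco-19, -0.33 ± 0.078 as counted (SE, edgeR adjusted p = 0.000744) and 0.30 after length correction (adjusted p = 0.00261).

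Phen-DC3 controls against the controls of Braco-19, a comparison that shares the Braco-19 controls with the one before, gave 61 genes higher and 1 lower of 74, against 34.6% and 34.9% of all tested genes. Libraries did not overlap for 63 and 1 genes, against 34.8% and 36.4%. The median was 0.84, and 0.34 after length correction, by which 48 were higher and 6 lower, against 33.2% and 29.5%. Mrps17 was at 70, 62.7 and 65.4 CPM in Phen-DC3 controls, against 32.2, 33.3 and 33.7 CPM in the controls of Braco-19 (1.00 ± 0.076, SE; edgeR adjusted p = 3.27e-10). Mrpl57 rose by 1.45 and Mrpl34 by 1.54 on the log2 scale. Mrps2 was -0.24 as counted and 0.28 after length correction (adjusted p = 0.00508). Mrps22, Mrpl39, Mrpl32, Mrps31, Mrps30 and Mrpl38 were called lower after length correction, at -0.48 to -0.28.

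**Figure D5:**
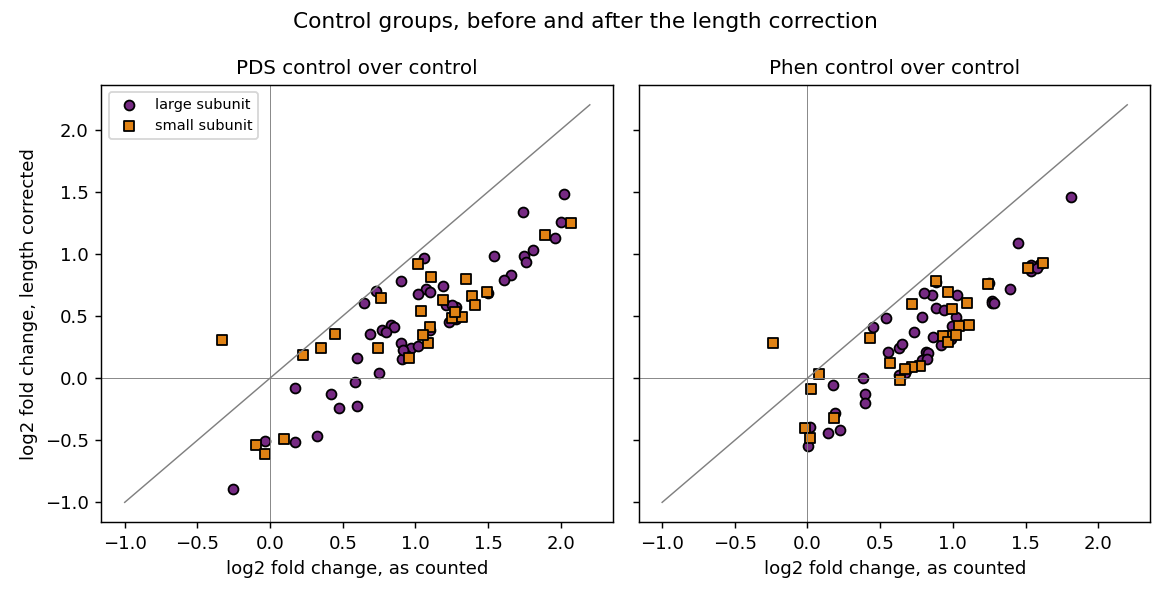
Length-corrected log2 fold change (y axis) against log2 fold change as counted (x axis) of the ribosomal members in Phen-DC3 controls and PDS controls, each against the controls of Braco-19. Mrpl53 in the Phen-DC3 panel and Mrps36 are not drawn; most points are above 0 on both axes, and Mrps2 is below 0 as counted and above 0 after the correction.

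Phen-DC3 controls against PDS controls gave 7 genes lower and none higher by edgeR, against 1.59% and 4.5% of all tested genes. DESeq2 gave 15 lower and none higher, and its share over all genes is not given here. At an unadjusted p under 0.05 there were 31 lower and 1 higher, against 9.72% and 15.5% of all tested genes, with a median of -0.19 against 0.01 for all tested genes. Libraries did not overlap for 25 genes that were lower and 1 that was higher, against 10.6% and 13.1%. After length correction 3 were lower and none higher, against 1.28% and 2.02%. This comparison shares the Phen-DC3 controls with the comparison of Phen-DC3, where Mrps11, Mrpl17, Mrpl28 and Mrpl43 were called higher, so the same 3 libraries enter both sets of calls. Mrps11 was at 20.1, 29.2 and 29.2 CPM in Phen-DC3 controls, against 37.4, 36.3 and 41.4 CPM in PDS controls, -0.55 ± 0.12 as counted (SE, edgeR adjusted p = 0.0189) and -0.45 after length correction (adjusted p = 0.0245). Mrpl17 was at -0.29, Mrpl28 at -0.31, Mrpl43 at -0.48, Mrpl37 at -0.22 and Mrps18a at -0.28.

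Mrps18b belongs with Mrps18a and Mrps18c to the 3 proteins related to a single bacterial one. It was at 36.1, 36.3 and 37 CPM in Phen-DC3 controls, against 45.5, 46 and 45.7 CPM in PDS controls, -0.33 ± 0.077 as counted (SE, edgeR adjusted p = 0.0233) and again -0.33 after length correction (adjusted p = 0.0246). The libraries within each group lay close together and the groups did not overlap. In the controls of Braco-19, Mrps18b was at 35.5, 33.6 and 38.5 CPM, a range that takes in the Phen-DC3 controls. Mrps18a was at 35.7, 36.5 and 40 CPM in Phen-DC3 controls, against 23.4, 21.5 and 24.7 CPM in the controls of Braco-19. Mrps18c was at 27.5, 21.5 and 24.2 CPM in Phen-DC3 controls, against 13.4, 11.9 and 11.8 CPM in the controls of Braco-19. With PDS, Phen-DC3 and Braco-19 none of the 3 was called.

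The values of largest size in the set came from single libraries. Mrpl53 (chromosome 4, 113942041 to 113942674, plus strand) was at 28.7 CPM, from 460 counts, in the first Phen-DC3 control, and at 0.224 to 1.13 CPM in the other 17 libraries. Mrpl36, the homologue of the smallest bacterial large subunit protein (chromosome 1, 32570296 to 32570589, minus strand), was at 11.6 CPM, from 195 counts, in the third Phen-DC3 library, and at 0.0624 to 1.14 CPM in the other 17. These gave the extreme log2 differences with Phen-DC3, -3.27 ± 1.1 for Mrpl53 (SE, edgeR adjusted p = 0.0878) and 3.23 ± 1.1 for Mrpl36 (adjusted p = 0.0742), neither called. Of all 14184 tested genes, 6 had 1 library at 5 CPM or more and at least 10 times above the next. The neighbours of Mrpl53 did not share the high value: in that library Ccdc142 was at 0.125 CPM and Mogs at 0.436 CPM, within their ranges in the other 17.

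Proteins of the mitoribosome that do not carry an Mrp name were looked at beside the set, in a list that also holds Oxa1l. Oxa1l is an insertase of the inner membrane and not a ribosomal protein. Of the 6 genes of this list, all tested, Ptcd3, a pentatricopeptide-repeat protein of the small subunit, rose with PDS. It had 30, 32.7 and 37.1 CPM with PDS, against 25.1, 20.1 and 29.5 CPM in PDS controls (0.42 ± 0.12, SE, edgeR adjusted p = 0.0413). With Phen-DC3, Chchd1 and Dap3, also of the small subunit, rose by 0.37 (adjusted p = 0.0305) and 0.23 (adjusted p = 0.0422), and neither held after length correction. With Braco-19 none was called by edgeR or DESeq2, and 1 was higher at an unadjusted p under 0.05. Of all tested genes, edgeR called 5.13% higher with PDS, 2.19% with Phen-DC3 and 0.169% with Braco-19. At an unadjusted p under 0.05, 11.4% were higher with Braco-19. The table also lists mrpl9, mrpl11 and mrpl24 in lower case, which the rule leaves out. Of these mrpl11, a protein at the base of the factor-binding stalk, had 35.9, 35.8 and 35 CPM with Phen-DC3, against 17.4, 30.2 and 28.2 CPM in Phen-DC3 controls (0.49 ± 0.14, SE; adjusted p = 0.0415).

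The machinery around the mitoribosome gave few calls. None of 30 tested assembly factors, 17 translation factors and 18 mitochondrial aminoacyl-tRNA synthetases was called with PDS, Phen-DC3 or Braco-19 by edgeR's quasi-likelihood test. At an unadjusted p under 0.05, the assembly factors gave 3 higher and 5 lower with PDS, 7 higher and none lower with Phen-DC3, and 5 higher and 1 lower with Braco-19, out of 30. The shares of all tested genes were 13.3% and 9.58% with PDS, 12.5% and 16.4% with Phen-DC3, and 11.4% and 7.39% with Braco-19. DESeq2 called 2 of them lower with PDS, 2 higher with Phen-DC3 and none with Braco-19. Translation factors and synthetases gave at most 1 unadjusted p under 0.05 in a direction with any compound, and DESeq2 called 1 of them, a translation factor that was higher with Phen-DC3. A further list of 25 tested genes covered expression of mitochondrial DNA and mitochondrial biogenesis, and included nuclear regulators such as Nrf1 and Gabpa. Of these 25, Hsd17b10, a subunit of the mitochondrial RNase P, fell by 0.52 on the log2 scale with PDS (edgeR adjusted p = 0.0492). Fastk rose by 0.31 with Phen-DC3 (edgeR adjusted p = 0.0226). Of all tested genes, 2.96% were called lower with PDS and 2.19% higher with Phen-DC3. Between PDS controls and the controls of Braco-19, 18 assembly factors were higher and 6 lower, and 10 translation factors were higher and 4 lower, against 35.6% and 37.7% of all tested genes. After length correction these were 14 and 4 assembly factors and 7 and 1 translation factors, against 35.2% and 31.9%.

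Larger sets of genes that serve translation and respiration were counted beside these. Of 81 cytosolic ribosomal protein genes, none was called higher and 1 lower with PDS, 18 higher and none lower with Phen-DC3, and none with Braco-19, with medians of -0.15, 0.30 and 0.22 on the log2 scale. Of 76 nuclear genes for respiratory chain and ATP synthase subunits, 1 was higher and 2 lower with PDS, 25 higher and none lower with Phen-DC3, and 1 higher and none lower with Braco-19, with medians of -0.15, 0.32 and 0.24. All tested genes called higher and lower were 5.13% and 2.96% with PDS, 2.19% and 5.82% with Phen-DC3, and 0.169% and 0.106% with Braco-19. After length correction, with Phen-DC3 none of either set was called, against 0.155% and 0.176% of all tested genes. With PDS it left 2 lower cytosolic ribosomal genes, and 1 higher and 3 lower respiratory genes, and with Braco-19 none of either. The medians of the mitoribosomal genes as counted, -0.10, 0.23 and 0.15, had the same signs. The 13 messenger RNAs of mitochondrial DNA, which the mitoribosome translates, had medians of 0.11 with PDS, -0.44 with Phen-DC3 and -0.41 with Braco-19, and only 1 call, a lower one with Phen-DC3, which the length correction did not leave.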

How the data were processed

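RNA from 18 libraries was analysed in 6 groups of 3. The authors deposited whole-number counts for each gene, without normalisation, beside positions and gene lengths. Per the submitters' processing notes, CASAVA, HISAT2 and featureCounts 1.5.0-p3 were used, and the sources used here do not name the build, the annotation or the strandedness. Counts were normalised by TMM, filtered with filterByExpr and fitted in 1 model of the 18 libraries with edgeR 4.0.16 (R 4.3.3, limma 3.58.1; 12 residual degrees of freedom), using the quasi-likelihood test with Benjamini-Hochberg adjustment over all tested genes and a threshold of 0.05. The length correction entered as offsets the lowess trend (span 0.3) of each library's deviation in log2 CPM on log gene length. CPM are counts per 1000000 TMM-scaled counts. Counting intervals of the shares in the 75 genes (exact binomial, 95%) were at most 0.003 percentage points to either side and cover counting error only. Intervals of effect differences use the SE and a t quantile. Alternatives were DESeq2 1.42.0, RLE and upper-quartile scaling, no filter or a filter of 1 CPM in 3 libraries, the compared libraries alone, a replicate block and leaving out each library. Shares of all genes called by DESeq2, or with a library left out, are not given here. The scripts were tested on simulated data.

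Genes were named by rule: in each comparison the called genes with the smallest p, up to 8 in each direction (5 for differences between compounds); the 4 largest values in each direction for each compound; the 4 highest and lowest levels per kilobase; the 3 longest and shortest; every untested gene; genes of known function; and up to 4 called genes per related list. Outside this rule, and named after their values were seen, are Mrpl2, Mrpl48 and the other genes called in a fit to the compared libraries alone, Mrpl43 and Mrps26 with Braco-19, Mrpl15, Mrpl33 and Mrpl43 with Phen-DC3, Mrpl42 for Phen-DC3 minus PDS, the 4 genes given for Phen-DC3 minus Braco-19, and the genes called lower after length correction between controls. Members and lists were chosen with earlier results of these data known, so nothing here is independent of them. Replicate numbers shared by a compound and its controls were checked for pairing.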

Additional observations from a re-analysis of the deposited data

Results flagged for a closer look

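Differences between the effects of compounds passed the test of the difference itself, edgeR's quasi-likelihood test of one log2 fold change minus another with Benjamini-Hochberg adjustment. For Phen-DC3 minus PDS, 24 of the 74 genes were higher and 1 was lower, against 7.76% and 12.4% of all tested genes, and 8 and 2 after length correction, against 6.51% and 6.8%. The genes named were Mrpl28 at 0.555, Mrpl48 at 0.64, Mrpl2 at 0.632, Mrps33 at 0.644, Mrpl14 at 0.864 and Mrps30 at -0.486 on the log2 scale, of which Mrps33 lost its call after length correction (adjusted p = 0.0907). With 1 library left out in turn, the call of Mrps30 held in 5 of 12 fits, and those of the other genes named in all 12. For PDS minus Braco-19, 1 gene was higher, Mrpl32 at 0.467, and 13 were lower, among them Mrpl48 at -0.804, Mrpl43 at -0.902, Mrps16 at -1.12, Mrpl2 at -0.675 and Mrps26 at -0.759. The background was 7.28% and 6.75%, and after length correction 4 were higher and 11 lower, against 7.28% and 6.87%. With 1 library left out in turn, the call of Mrpl32 held in 3 of 12 fits, and those of the other genes named for this pair in all 12. Compound and culture set cannot be told apart in these differences, since each compound has its own controls.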

How the results depend on the processing

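Over the named genes that were called, 414 alternative values gave 339 calls in the same direction, 71 values without a call and 4 of opposite sign, all of Mrps2. Depth limits Mrpl36 and Mrpl53, at or below 1.14 CPM in all libraries but 1 each. Of the 74 genes with PDS, 2 were called under upper-quartile scaling, 2 under a filter of 1 CPM, 3 by DESeq2, 2 after length correction and 13 in the fit to the compared libraries alone, 12 of these lower. With Phen-DC3, 22 were called by DESeq2 and 0 after length correction and in the fit to the compared libraries alone. With Braco-19, 1 was called under upper-quartile scaling, 5 by DESeq2, 1 after length correction and 8 in the fit to the compared libraries alone, and the median was 0.0783 after length correction. For Phen-DC3 controls against PDS controls, 15 were called by DESeq2, 3 after length correction and 0 in the fit to the compared libraries alone. Against the controls of Braco-19, the median was 0.956 in Phen-DC3 controls and 1.14 in PDS controls under upper-quartile scaling, which moved the median of all genes to 0.113 in Phen-DC3 controls, and 0.344 and 0.478 after length correction, by which Mrps2 turned to 0.281 and 0.303. For the difference of Phen-DC3 and PDS effects, length correction left 10 genes and a median of 0.183. For PDS and Braco-19 it gave a median of -0.123, and the fit to the compared libraries alone called 27. The cause of these changes was not tested.

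Leaving out each library in turn gave 0 to 1 called genes with PDS (medians -0.136 to -0.0647), 0 to 38 with Phen-DC3 (0.188 to 0.301) and 0 to 3 with Braco-19 (0.128 to 0.164). The share of all tested genes called in these fits is not given here, so none of the counts in this paragraph has a background beside it. With Phen-DC3 the count was 38 without the third control, 26 without the third treated library, 1 without the second control, and 0 without the first control or the first or second treated library. With Braco-19 it was 3 without the first treated library. It was 0 to 28 for Phen-DC3 controls against PDS controls (-0.261 to -0.137), with 28 without the third Phen-DC3 control, 8 without the first PDS control and 0 without any of the other 4. Against the controls of Braco-19 it was 61 to 63 in Phen-DC3 controls (0.795 to 0.876) and 63 to 64 in PDS controls (0.957 to 1.07). For the differences of effects it was 8 to 41 for Phen-DC3 minus PDS (0.264 to 0.375), 0 for Phen-DC3 minus Braco-19 (0.00988 to 0.119) and 6 to 19 for PDS minus Braco-19 (-0.27 to -0.185). The lowest and highest counts came without the first Phen-DC3 library and the third Phen-DC3 control for the first, and without the third PDS or second Braco-19 library and the first Braco-19 library for the last.

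Libraries with the same replicate number correlated in their deviations at -0.0362, 0.0637 and 0.00063 for PDS, -0.116, -0.0331 and -0.251 for Phen-DC3 and 0.058, 0.0717 and 0.00885 for Braco-19. Those with unlike numbers correlated at -0.0654 to 0.0648, -0.0702 to 0.186 and -0.0708 to 0.00877 in the same order. No pairing by number was seen, but 3 libraries per group cannot exclude that equal numbers share a culture or rat. With the replicate number as a block, 0 genes were called with Phen-DC3, 4 for Phen-DC3 controls against PDS controls, 6 for Phen-DC3 minus PDS and 4 for PDS minus Braco-19. With block and length correction together these were 0, 3, 1 and 8, with medians of 0.0823 for Braco-19, 0.344 and 0.48 for the controls against those of Braco-19, 0.181 for Phen-DC3 minus PDS and -0.126 for PDS minus Braco-19, and Mrps2 at 0.281 and 0.303.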
